A study of Homo sapiens with 12 samples.

Results

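The potassium channel genes of SH-SY5Y cells were taken as every gene whose symbol is KCN followed by letters and a number, which gave 93 of the 55765 gene symbols counted, while 17 other symbols starting with KCN, among them antisense and overlapping transcripts, were left out. By symbol, 40 of the 93 encode pore subunits of voltage-gated channels, 8 encode channels opened by calcium or sodium, 15 encode inward rectifiers, 15 encode tandem-pore leak channels and 15 encode accessory subunits. SH-SY5Y is a neuroblastoma line subcloned from the bone marrow-derived line SK-N-SH, and it takes on a neuron-like form under all-trans retinoic acid (ATRA). All 12 samples, called cultures here although nothing states that they were independent, received ATRA for 7 days, and none was left undifferentiated. In the co-treatment experiment, 3 cultures received hydrogen peroxide together with ATRA throughout and 3 controls received ATRA alone. In the pre-treatment experiment, 3 cultures received hydrogen peroxide for 72 h before ATRA and 3 controls did not. The peroxide dose is 10 mM in the series description. The methods of the study give 10 μM, the lowest of the concentrations it tried, so the 2 sources differ in the unit. The comparisons ask whether peroxide exposure during or before differentiation changed the RNA levels of these channel genes in a single cell line.

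Potassium channels let potassium leave the cell, which sets the resting potential of neurons and ends each action potential. Voltage-gated pore subunits assemble as tetramers and open on depolarisation, inward rectifiers and leak channels hold the membrane near rest, and calcium- and sodium-activated channels couple firing to ion entry. Accessory subunits such as the KCNAB, KCNE, KCNIP and KCNMB proteins change the gating or surface delivery of the pores, and the "silent" KCNG, KCNS and KCNV subunits carry no current alone and modify other voltage-gated channels. Cells of the sympathetic and neuroblastoma lineage are known for current through KCNH2, the ether-à-go-go-related channel.

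The libraries held 27576276 to 98287391 reads on genes, so that a level of 1 count per 1000000 reads (CPM) rested on about 27.6 to 98.3 reads. Control replicates 1 and 2 of the pre-treatment experiment stood apart from the other libraries. They had 0.800 and 0.830 reads outside annotated genes for each read on a gene, against 0.200 in control replicate 3 of the same experiment and 0.263 to 0.462 in the other 9 libraries. Small structured RNAs took 1.74% and 3.02% of their reads on genes, against 17.7% in control replicate 3 and 5.20% to 15.2% in the other 9. Pre-treatment results are therefore given with all 6 libraries and without control replicate 3, the latter being the 5 libraries that the study clusters. Of 8 noradrenergic neuroblastoma markers, 7 passed the filter on low counts within each experiment, and the other, TH, was at 0.01 to 0.26 CPM and passed it only in the 11-library test of the difference between experiments. SOX10 of Schwann cells was under 1 CPM, and the mesenchymal factor PRRX1 was at most 0.08 CPM. The noradrenergic markers had a median log2 fold change (log2FC, treated over control) of -0.44 in co-treatment and -0.78 in pre-treatment with all 6 libraries, with 0 of 7 called in either. Without control replicate 3, 4 of 7 were called lower and 1 higher, where 12.8% of all genes were called lower and 13.2% higher. The mesenchymal list (6 of 8 tested in each experiment) had medians of 0.55 and 0.62, although its members were mixed, with COL1A1 at -1.65 and -0.60 and FN1 at 0.51 and -0.33, none of these called. VIM was the 1 mesenchymal gene called, higher in the treated cultures of both experiments (co-treatment log2FC 1.16, adjusted p = 0.0272; pre-treatment with all 6 libraries 2.42, adjusted p = 0.0442; edgeR's quasi-likelihood test with Benjamini-Hochberg adjustment). Without control replicate 3, 3 of 7 mesenchymal genes were called, all higher (42.9%, against 13.2% of all genes called higher). The part of these marker shifts in the results was not tested. In RNA from whole cultures, fewer cells with a transcript and less of it per cell cannot be told apart.

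Levels were compared between genes per kilobase of exon (RPKM), averaged over the 6 ATRA-only controls. KCNH2 was highest at 38.8 ± 4.33 RPKM (SD, n = 6; 34.5 to 45.5), and in every control it exceeded all other potassium channel genes. It took 26.1% to 43.3% of all reads on these genes in the 12 libraries. KCNT2, a sodium-activated channel, was the next at 10.1 ± 2.27 RPKM (8.48 to 14.3).

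A further 7 of the 10 highest genes lay between 4.06 and 6.05 RPKM, and neighbours in that order overlapped. KCNMB4, the neuronal accessory subunit of the large-conductance calcium-activated channel, was at 6.05 ± 0.610, whereas the pore it modifies, KCNMA1, averaged 0.12 RPKM over its long exon set of 39437 bp. KCNJ9, a G protein-gated inward rectifier, was at 5.43 ± 1.39. The leak channels KCNK1 and KCNK3 were at 5.37 ± 0.539 and 4.80 ± 0.987. KCNQ1 was at 5.35 ± 0.751, KCNN1, a small-conductance calcium-activated channel, at 4.64 ± 0.587, and KCNH8 at 4.06 ± 0.734. The span of KCNQ1 contains an antisense transcript, and the strand setting used for counting is not given in the sources used here, so reads of overlapping or antisense genes cannot be told apart.

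Expression was uneven in every family. Of the 93 genes, 22 had at least 1 RPKM and 43 were under 0.1. In the KCNH family, KCNH6 (3.03 RPKM) and KCNH7 (1.97) followed KCNH2 and KCNH8, while KCNH5 passed no filter on low counts. Among KCNA genes, which encode the Shaker-type channels of axons, only KCNA3 exceeded 1 RPKM, at 1.73, whereas KCNA1, KCNA4, KCNA5, KCNA6, KCNA7 and KCNA10 passed none. In all, 27 of the 93 passed no filter in any comparison, and 1 of them, KCND2, had no read in any library.

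**Figure D1:**
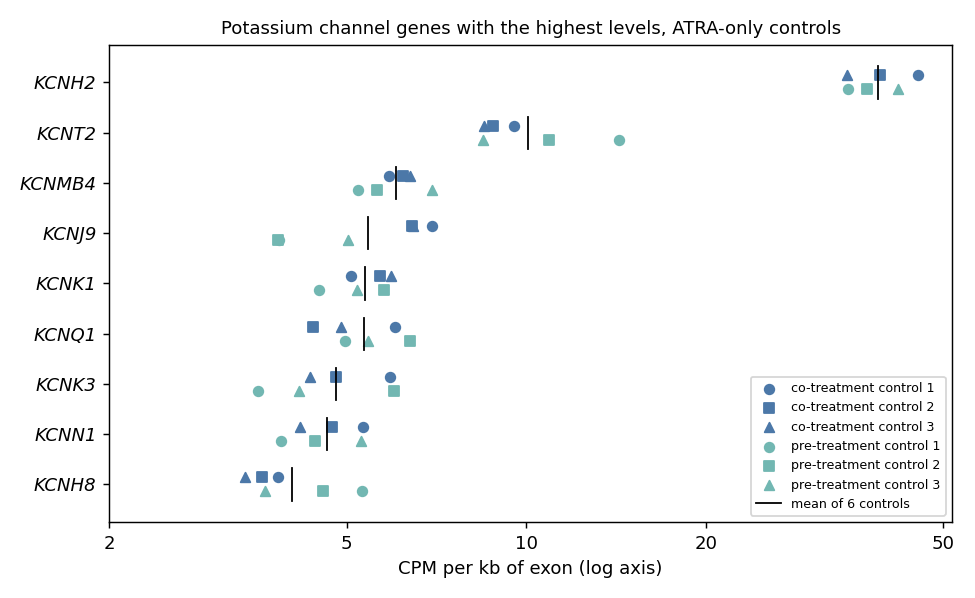
Levels of 9 of the 10 potassium channel genes with the highest mean in the ATRA-only controls, as CPM per kilobase of exon on a log axis, with 1 point per control library and a vertical line at the mean of 6. KCNH2 (34.5 to 45.5) lies to the right of every other gene, KCNT2 comes next, and the points of neighbouring genes below KCNT2 overlap.

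Under peroxide given together with ATRA, 1 potassium channel gene passed the test. Of the 93 genes, 60 passed the filter on low counts, and KCNK1 was called lower at an FDR under 0.05 (1.67%, against 0.598% of the 22089 genes tested). KCNK1 encodes a weakly rectifying leak channel of the tandem-pore family, and its gene spans chr1:233749852-233808260 on the plus strand (hg19). A further 6 had an unadjusted p under 0.05, which made 7 of 60 (11.7%, against 8.15% of all genes). The 60 log2FC values were balanced, with 31 above and 29 below 0 (48.3%, against 50.1% of all genes) and a median of 0.04, against -0.00 for all genes.

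KCNK1 stood at 17.9, 20.1 and 20.9 CPM in the co-treatment controls and at 11.5, 10.3 and 12.05 CPM in the treated cultures. The groups did not overlap, and the highest treated culture was well under the lowest control. KCNK1 fell by 0.80 on the log2 scale (SE 0.14, adjusted p = 0.0266). The call was narrow, since the adjusted p was 0.0642 to 0.174 without control 2, control 3 or any 1 of the treated replicates, and 0.0084 without control 1. In the pre-treatment experiment, KCNK1 was at 15.8, 20.4 and 18.4 CPM in the controls and at 11.9, 13.04 and 13.2 in the treated cultures, again without overlap. Its log2FC there was -0.52 (SE 0.18, unadjusted p = 0.0178, adjusted p = 0.338) with all 6 libraries and -0.48 (adjusted p = 0.0596) without control replicate 3, so it was not called. KCNK1 was the only one of 60 potassium channel genes whose groups were separated downward in both experiments (0.926% of 21930 genes did so), and none was separated upward in both (0.976% of genes).

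The sequence before the KCNK1 start is shown because this gene carries the co-treatment result. It covers 250 bases upstream on the plus strand at chr1:233613856-233614105 (RefSeq, GRCh38.p14), with GC boxes (GGGCGG or its reverse complement) in capitals.
KCNK1: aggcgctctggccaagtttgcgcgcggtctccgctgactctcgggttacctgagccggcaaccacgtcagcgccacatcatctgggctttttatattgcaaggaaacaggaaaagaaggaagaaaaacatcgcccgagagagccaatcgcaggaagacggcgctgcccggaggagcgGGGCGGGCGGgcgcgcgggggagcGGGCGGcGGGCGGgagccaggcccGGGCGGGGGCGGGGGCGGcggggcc
The window held 7 GC boxes by position, counting overlapping copies, and 69.2% G or C. GC boxes occurred in 39 of the 69 potassium channel promoters that could be matched (56.5%) and in 42.3% of 27305 promoters of the same length, and median GC was 64.8% against 58.0%. The antioxidant response core TGACNNNGC on either strand was in 6 of the 69 and 3013 of all 27305, and the retinoic acid half-site AGGTCA in 5 and 3316. Such matches only describe the letters of these windows.

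Inward rectifiers held the next 2 genes by p-value. KCNJ11, the pore of the ATP-sensitive potassium channel, was at 4.59, 3.66 and 3.47 CPM in the co-treatment controls and at 2.03, 1.73 and 1.28 in the treated cultures (57 to 225 reads). The gene spans chr11:17386719-17410878 on the minus strand (hg19), within which NCR3LG1 overlaps it. The groups were separated, with a log2FC of -1.23 (SE 0.25), and its adjusted p of 0.0607 missed the threshold. It was called when very low genes were kept, without small RNA genes, with replicate number as a block, by DESeq2 and by edgeR's exact test. In the other 12 alternatives it was not called. In the pre-treatment experiment KCNJ11 overlapped between groups, at 1.90, 4.05 and 2.82 CPM in controls and 2.95, 3.26 and 7.47 in treated cultures. ABCC8, the sulfonylurea receptor that assembles with KCNJ11 and lies beside it on chromosome 11, was at 5.77, 5.43 and 4.25 CPM in the co-treatment controls and 2.91, 2.45 and 3.44 in the treated cultures. Its log2FC was -0.81 (SE 0.22, adjusted p = 0.195), and it was not called.

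KCNJ13, an inward rectifier best known from epithelia, was at 0.82, 0.71 and 0.41 CPM in the co-treatment controls and 1.07, 1.95 and 1.71 in the treated cultures (14 to 121 reads). All 3 treated values were above the controls, with a log2FC of 1.29 (SE 0.37, adjusted p = 0.240). Its span overlaps GIGYF2. KCNQ3, a subunit of the M-current channel that restrains repetitive firing, was at 5.34, 3.85 and 3.53 CPM in controls and 6.25, 7.57 and 6.38 in treated cultures (log2FC 0.67, SE 0.21, adjusted p = 0.319). KCNK9, an acid-sensitive leak channel, was at 3.63, 2.14 and 2.33 CPM in controls and 1.14, 2.05 and 1.69 in treated cultures (log2FC -0.71, SE 0.31, adjusted p = 0.562). None of these 3 genes was called, although their co-treatment groups did not overlap. In the pre-treatment experiment the groups of all 3 overlapped.

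**Figure D2:**
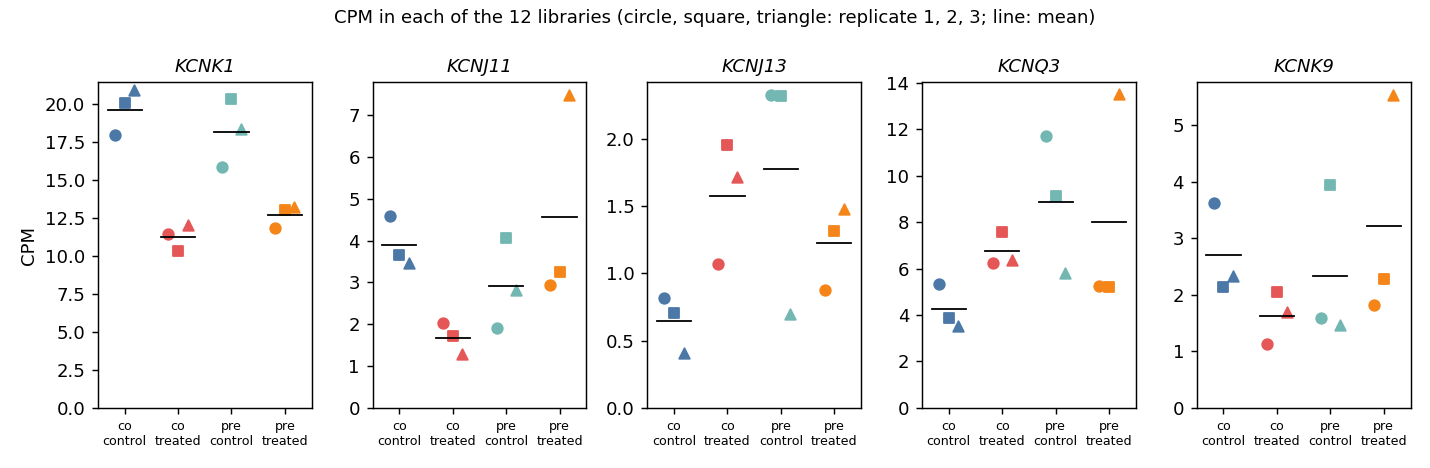
CPM of the 5 genes with the smallest co-treatment p-values in each of the 12 libraries, with a line at each group mean and a separate linear axis from 0 for each gene. KCNK1 is lower in the treated cultures of both experiments, whereas the co-treatment separation of the other 4 genes is not seen in the pre-treatment groups, which overlap.

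Across all 60 genes, 3 were separated upward in co-treatment (KCNJ13, KCNK5 and KCNQ3; 5.0%, against 6.66% of all genes) and 6 downward (KCNH7, KCNJ9, KCNJ11, KCNK1, KCNK9 and KCNMA1; 10.0%, against 7.31%). By family, 26 voltage-gated pore genes were tested with a median log2FC of 0.08, 10 accessory genes with 0.06, 10 inward rectifiers with 0.10, 9 tandem-pore genes with -0.08 and 5 calcium- or sodium-activated genes with -0.08. Outside KCNK1, none was called. KCNH2, the most abundant, was at 328, 283 and 249 CPM in controls and 408, 299 and 344 in treated cultures (log2FC 0.29, SE 0.15, adjusted p = 0.686), and the groups overlapped.

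Peroxide given before ATRA gave no call among the potassium channel genes when all 6 libraries were used. Of 63 genes tested, 0 had an FDR under 0.05 by edgeR's quasi-likelihood test (0.0242% of 24743 genes were called), while 13 had an unadjusted p under 0.05 (20.6%, against 11.2%). DESeq2 called 3, edgeR's exact test 0 and limma-voom 0, where all genes gave 705, 271 and 0 calls. More genes lay below 0 than above, 41 of 63 (65.1%, against 50.6% of all genes), and the median log2FC was -0.18 against -0.01. Groups did not overlap for 5 genes in the upward direction (KCND3, KCNJ3, KCNMA1, KCNMB2 and KCNS3; 7.94%, against 8.45%) and for 5 downward (KCNH2, KCNIP1, KCNK1 and KCNQ1 among them; 7.94%, against 7.93%).

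The 5 smallest p-values belonged to 3 genes that were lower and 2 that were higher in the treated cultures, none of them called. KCNC4 and KCNC1 encode fast-deactivating channels of rapidly firing neurons, and KCND1 encodes an A-type, rapidly inactivating channel. KCNC4 was at 10.6, 17.6 and 4.46 CPM in controls 1 to 3 and at 3.02, 4.54 and 3.32 in the treated cultures (log2FC -1.58, SE 0.45, adjusted p = 0.320). KCNC1 was at 23.0, 38.1 and 6.58 CPM in controls and 5.31, 7.02 and 9.48 in treated cultures (log2FC -1.63, SE 0.54, adjusted p = 0.338). KCND1 was at 11.7, 12.5 and 2.24 CPM in controls and 2.62, 3.52 and 1.93 in treated cultures (log2FC -1.70, SE 0.57, adjusted p = 0.338). For all 3 genes controls 1 and 2 were above every treated culture, and control 3 lay among or below the treated values. KCNC1 overlaps SERGEF.

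KCNMA1, the pore of the large-conductance calcium-activated channel, was at 2.71, 4.63 and 3.62 CPM in the pre-treatment controls and 5.27, 6.08 and 15.4 in the treated cultures (log2FC 1.29, SE 0.43, adjusted p = 0.338). All treated values were above the controls, and treated replicate 3 was the highest by far. In co-treatment the same gene was at 6.28, 6.16 and 5.57 CPM in controls and 3.09, 5.05 and 4.69 in treated cultures (log2FC -0.48, SE 0.22, adjusted p = 0.604). KCNS3, a silent modulatory subunit, was at 0.48, 0.60 and 0.54 CPM in the pre-treatment controls and 1.11, 0.87 and 2.45 in the treated cultures (27 to 194 reads; log2FC 1.45, SE 0.46, adjusted p = 0.324). Its groups were separated as well, with treated replicate 3 again highest.

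Among the abundant genes, KCNH2 was at 249, 269 and 303 CPM in the pre-treatment controls and 221, 234 and 169 in the treated cultures. The groups were separated by a small gap (log2FC -0.40, SE 0.19, adjusted p = 0.481). The values for KCNQ1 (log2FC -0.55, SE 0.20, adjusted p = 0.367) and KCNK3 (log2FC -0.55, SE 0.24, adjusted p = 0.439) were of similar size. KCNT2 (0.11, SE 0.22), KCNMB4 (-0.27, SE 0.19), KCNJ9 (-0.01, SE 0.21), KCNN1 (-0.27, SE 0.19) and KCNH8 (-0.05, SE 0.18) had adjusted p of 0.613 to 0.985.

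Without control replicate 3, many genes of all kinds passed the threshold. Of 66 potassium channel genes tested, 11 were called (16.7%, against 26.1% of 26350 genes). The share was below that of all genes for higher calls (1 gene, 1.52%, against 13.2%) and slightly above it for lower calls (10 genes, 15.2%, against 12.8%). The median log2FC was -0.30 against 0.01 for all genes, with 44 of 66 below 0 (66.7%, against 49.4%). With library size as the only scaling the median of all genes moved to -0.21, and the split became 0 higher and 20 lower. In that fit, 1384 of the 26350 genes were called higher and 4892 lower.

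Of the 10 lower calls, 7 were in voltage-gated pores, the largest family with 27 of the 66 genes tested. In that family 1 gene was called higher, and the median log2FC was -0.40. Over all genes, 12.8% were called lower. The tandem-pore median was as low, at -0.44, with 8 of 10 genes below 0 and 0 called. Medians were -0.29 for accessory genes (1 of 13 called lower), 0.18 for inward rectifiers (1 of 10) and 0.06 for calcium- or sodium-activated genes (1 of 6). KCND1 fell by 2.14 (SE 0.25, adjusted p = 0.0016), KCNC1 by 2.04 (SE 0.28, adjusted p = 0.0026) and KCNC4 by 1.93 (SE 0.27, adjusted p = 0.0027), with the CPM values given above. Each of these 3 genes kept its call whichever of the 5 libraries was dropped. In each of the 3, control 3 was lower than both other controls and within the range of the treated cultures.

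A further 6 calls rested on few reads or on smaller differences. The silent subunits KCNG2 and KCNS2 were at 1.10 and 1.18 CPM and at 1.12 and 0.96 CPM in controls 1 and 2. In the treated cultures KCNG2 was at 0.22, 0.30 and 0.47 CPM (20 to 37 reads) and KCNS2 at 0.21, 0.34 and 0.49 (20 to 39 reads). KCNG2 fell by 1.77 (SE 0.40, adjusted p = 0.0157) and KCNS2 by 1.56 (SE 0.42, adjusted p = 0.0292). Control 3 had 0.43 CPM of KCNG2 and 0.12 of KCNS2, as low as the treated cultures. KCNJ14 was at 1.47 and 3.13 CPM in controls 1 and 2 and at 0.63, 0.98 and 1.10 in the treated cultures, KCNN3 at 1.86 and 2.101 against 1.10, 1.15 and 0.74, and KCNAB2 at 8.50 and 13.2 against 6.36, 6.70 and 6.72. Controls and treated cultures did not overlap in any of the 3, but control 3, at 0.74, 0.56 and 6.58 CPM, lay within or below the treated values. The inward rectifier KCNJ14 fell by 1.32 (SE 0.39, adjusted p = 0.0372), the small-conductance calcium-activated channel KCNN3 by 0.96 (SE 0.29, adjusted p = 0.0433) and KCNAB2, an accessory subunit of Shaker-type channels, by 0.69 (SE 0.21, adjusted p = 0.0440). KCND3, an A-type channel related to KCND1, was the 1 gene that rose, from 0.44 and 0.54 CPM in controls 1 and 2 to 0.92, 0.95 and 1.53 (log2FC 1.24, SE 0.38, adjusted p = 0.0436). Its control 3 value, 0.89 CPM, lay just under the lowest treated culture. Of these 6 genes, KCNS2, KCNJ14, KCND3 and KCNAB2 overlap another coding gene, and each of the 6 lost its call when certain single libraries were left out.

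**Figure D3:**
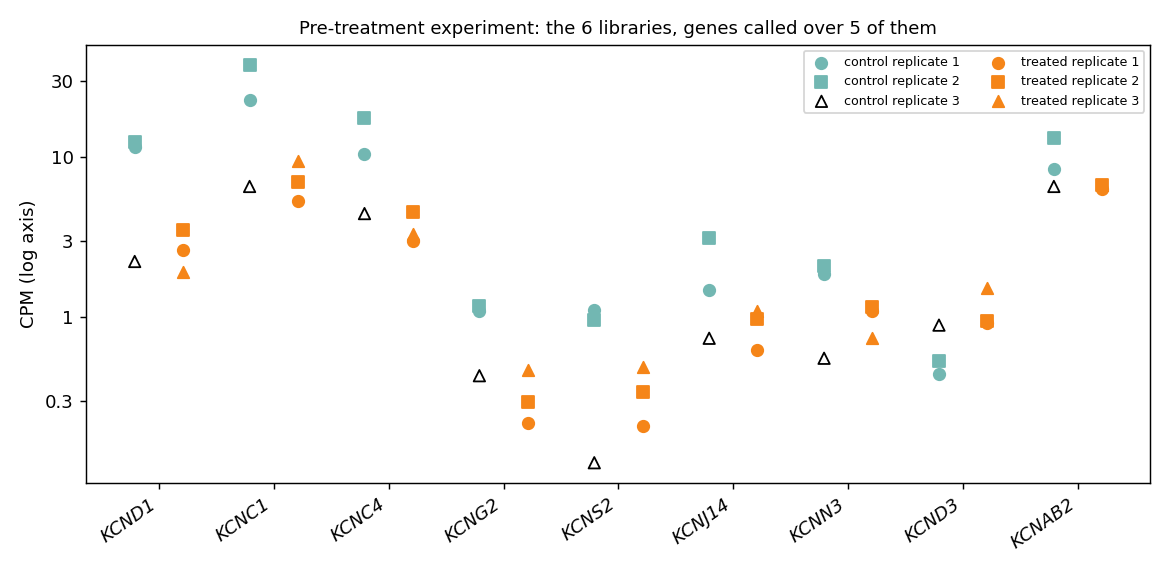
CPM (log axis) in the 6 pre-treatment libraries for 9 of the 11 genes called without control replicate 3, with the filled green symbols for controls 1 and 2, orange symbols for the treated cultures and the open triangle for control 3. The open triangle lies with or below the treated cultures for the 8 of these genes that were lower, KCNAB2 included at 6.58 against 6.36 to 6.72 CPM, and it lies just under them for KCND3.

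The sequences before the starts of KCNC1, KCNC4 and KCND1 are shown because these genes had the largest fall in the 5-library comparison among those whose promoter could be matched. They come from RefSeq (GRCh38.p14), 250 bases each, read 5′ to 3′ on the strand of the gene, with GC boxes in either orientation in capitals. KCNC1 lies at chr11:17734531-17734780 on the plus strand, KCNC4 at chr1:110210064-110210313 on the plus strand and KCND1 at chrX:48971845-48972094 on the minus strand.
KCNC1: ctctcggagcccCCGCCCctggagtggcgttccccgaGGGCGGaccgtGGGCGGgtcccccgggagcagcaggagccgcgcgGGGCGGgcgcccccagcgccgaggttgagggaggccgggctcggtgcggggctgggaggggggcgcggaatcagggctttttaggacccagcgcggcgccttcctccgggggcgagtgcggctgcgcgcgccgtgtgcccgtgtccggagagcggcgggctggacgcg
KCNC4: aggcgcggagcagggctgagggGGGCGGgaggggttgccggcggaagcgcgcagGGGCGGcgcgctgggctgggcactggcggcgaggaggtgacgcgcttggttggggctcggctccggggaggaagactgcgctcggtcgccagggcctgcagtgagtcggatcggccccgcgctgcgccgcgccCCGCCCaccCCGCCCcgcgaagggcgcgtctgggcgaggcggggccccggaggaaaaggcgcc
KCND1: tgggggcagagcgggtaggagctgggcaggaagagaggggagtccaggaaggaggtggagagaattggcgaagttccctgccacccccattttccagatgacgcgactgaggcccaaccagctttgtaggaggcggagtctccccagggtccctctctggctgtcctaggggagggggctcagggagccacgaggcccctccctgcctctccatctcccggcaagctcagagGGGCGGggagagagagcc
KCNC1 and KCNC4 each held 4 GC boxes and 79.2% G or C, above the median of 64.8% for potassium channel promoters. KCND1 held 1 GC box and 65.6% G or C. None of the 3 windows held TATAAA, TGACNNNGC or AGGTCA on either strand.

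The 2 controls that stood apart in read composition also stood apart in these genes. Controls 1 and 2 of the pre-treatment experiment were both above the other 10 libraries, co-treatment libraries included, for 15 of 63 potassium channel genes (23.8%, against 16.9% of all genes), and both below them for 2, KCNJ8 and KCNN4 (3.17%, against 16.5%). The 15 include 9 of the 11 genes called without control 3. Those calls compare the same 2 controls with the treated cultures, so this overlap was partly built in. Its share over all called genes was not counted. KCNC1 was at 20.8, 9.30 and 7.26 CPM in the co-treatment controls, with the first of them close to the 23.0 of pre-treatment control 1. The part of read composition in these results was not tested. The median span of the 11 called genes was 102247 bp, against 54316 bp for the 66 tested.

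Other libraries also led within their groups. Treated replicate 3 of the pre-treatment experiment was at least 2-fold above both other treated replicates for 8 of 63 genes (KCNH1, KCNJ11, KCNK5, KCNK9, KCNMA1, KCNQ3, KCNS3 and KCNV2), against 3.13% of all genes. For KCNQ3 this replicate had 13.5 CPM beside 5.24 and 5.20. Control replicate 1 of the co-treatment experiment was the highest of its group for 42 of 63 genes, against 38.9% of all genes.

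The 2 experiments were compared by testing the difference of their peroxide effects, the interaction of treatment and experiment. With all 12 libraries, 0 of 63 genes were called by edgeR's quasi-likelihood test (0.0287% of 24407 genes were), and 7 had an unadjusted p under 0.05 (11.1%, against 8.94%). DESeq2 and limma-voom each called 0, where all genes gave 108 and 2 calls. The smallest p-values belonged to KCNJ11 (difference of log2FC, pre minus co, 1.84, SE 0.53, adjusted p = 0.450) and KCNMA1 (1.74, SE 0.51, adjusted p = 0.462), whose log2FC values were -1.23 and -0.48 in co-treatment and 0.64 and 1.29 in pre-treatment. KCNH2 (-0.71, SE 0.24), KCNJ13 (-1.86, SE 0.64) and KCNS3 (2.88, SE 1.01) followed with an adjusted p of 0.511 each. KCNS3 rested on as few as 5 reads in a co-treatment library.

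Without pre-treatment control replicate 3, 5 of 63 genes differed between the experiments, all with the lower value in pre-treatment (7.94%, against 8.02% of 25668 genes in either direction and 4.7% downward). They included KCNJ13 (-2.24, SE 0.48, adjusted p = 0.0171), KCNC4 (-1.49, SE 0.38, adjusted p = 0.0321) and KCND1 (-1.84, SE 0.50, adjusted p = 0.0397). In co-treatment KCNC4 and KCND1 had log2FC values of -0.50 and -0.36, neither of them called. KCNJ13 had effects of opposite sign and similar size, 1.29 in co-treatment and -0.90 (SE 0.29, adjusted p = 0.0520) in pre-treatment without control 3, although neither passed the threshold alone. Its pre-treatment controls were at 2.32, 2.32 and 0.69 CPM and its treated cultures at 0.88, 1.32 and 1.48. Where both pre-treatment controls stayed, leaving out 1 more library gave as few as 2 of 63 calls, without co-treatment control 2 (636 of 25545 genes). Leaving out pre-treatment control 2 leaves 1 control in that group. The median difference was then -0.39, against 0.06 for all genes.

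**Figure D4:**
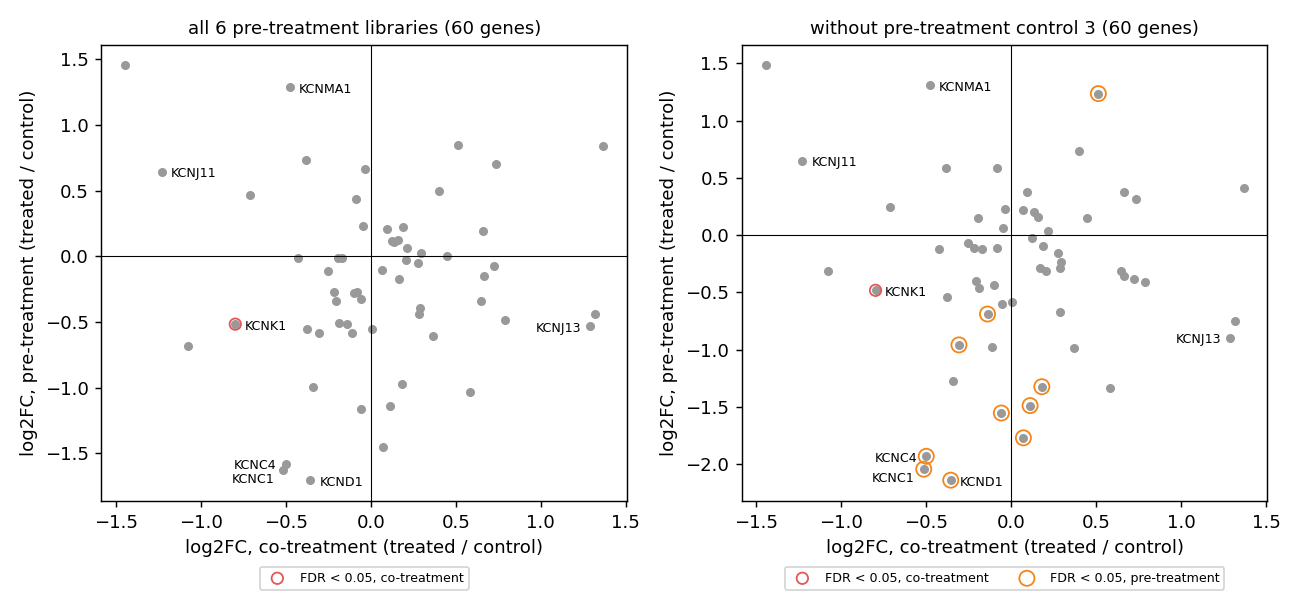
The log2FC of co-treatment (horizontal) against that of pre-treatment (vertical) for the 60 potassium channel genes tested in both, with all 6 pre-treatment libraries on the left and without control replicate 3 on the right. Circles mark an FDR under 0.05, in red for co-treatment (KCNK1) and orange for pre-treatment, and all orange circles but KCND3 at the upper right lie in the lower middle, with co-treatment values of -0.52 to 0.18.

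Genes that work with the channels were followed as 2 lists. The first held 24 accessory, anchoring and regulatory partners, among them DPP6 and DPP10 of A-type channels, the sulfonylurea receptors and the repressor REST. Of these, 20 were tested in co-treatment and 20 in pre-treatment with all 6 libraries, and 0 were called in either (median log2FC -0.09 and -0.07). Without control 3, 5 of 21 were called (23.8%, against 26.1% of all genes), with 1 higher and VAPB, CNTNAP1, ANK3 and REST lower. REST, which represses many neuronal channel genes, was at 99.9 and 90.1 CPM in controls 1 and 2, 53.9 in control 3 and 61.1, 68.8 and 67.2 in the treated cultures (log2FC -0.51, adjusted p = 0.0139).

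The second list held 10 pumps and cotransporters that set the potassium and chloride gradients. Of 9 tested, 0 were called in co-treatment and 0 in pre-treatment with all 6 libraries (median log2FC -0.11 and -0.15). Without control 3, 3 of 9 fell (33.3%, against 12.8% of all genes) and none rose (13.2% of all genes did). ATP1B2, a beta subunit of the sodium-potassium pump, was at 2.84 and 2.25 CPM in controls 1 and 2, 0.60 in control 3 and 0.45, 0.68 and 0.53 in the treated cultures (log2FC -2.18, SE 0.30, adjusted p = 0.0026). Control 3 again lay within the range of the treated cultures.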

How the data were processed

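Total RNA of 12 cultures was depleted of ribosomal RNA and sequenced as stranded paired-end libraries. Per the labels, the authors used FastQC 0.11.8, cutadapt 2.10, HISAT2 2.1.0 and HTSeq 0.7.2 on hg19, and deposited whole-number counts per gene symbol. The annotation version and the strand setting for counting are not given in the sources used here. The 2 series tables hold the authors' own comparisons (log2FC, mean log2 CPM, p and FDR) and were not used. The 5 entries for unassigned reads, 40.0% to 59.9% of all entries, were left out.

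Here, edgeR 4.0.16 (R 4.3.3) fitted quasi-likelihood models to all genes with a CPM worth 5 counts of the smallest library or more in 3 libraries (2 where control replicate 3 was left out), with TMM scaling, and p-values were adjusted by Benjamini-Hochberg over all genes tested. CPM values are TMM-scaled. Exon lengths came from GENCODE v44lift37 (GRCh37), where all 93 genes matched, and 24 of them overlap another coding gene. Named genes were, in each of 5 fits, those called, filled to 5 by p where fewer, plus the 10 with the highest RPKM, and other genes singled out were chosen after their values were seen. The genes and lists were chosen with earlier results of these data known. Nothing states that replicates came from independent cultures, so p-values measure the spread between these samples. Alternatives used DESeq2 1.42.0, limma 3.58.1, other scalings and filters, a replicate block and each library left out. Scripts were tested on simulated data. Same-numbered controls and treated cultures did not deviate together over all libraries (correlations -0.15 to 0.02 in co-treatment and -0.25 to 0.06 in pre-treatment), so numbers were not taken as pairs. Without pre-treatment control replicate 3 the same-number correlations were 0.25 for replicate 1 and 0.01 for replicate 2. The deviations of 2 controls from their own mean mirror each other. The values for unlike numbers, -0.25 to 0.16, therefore add no evidence on pairing. Some genes that belong to the set or its lists are counted but not reported here.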

Additional observations from a re-analysis of the deposited data

Results flagged for a closer look

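The difference between the peroxide effects of the 2 experiments passed the test in 11 libraries, without pre-treatment control replicate 3, for 5 potassium channel genes. The differences (pre-treatment minus co-treatment, log2 scale) included -2.24 for KCNJ13, -1.49 for KCNC4 and -1.84 for KCND1, by edgeR's quasi-likelihood test of the interaction. With all 12 libraries none of the 5 passed. The groups had 3 cultures each, too few for a test of single outlying samples.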

How the results depend on the processing

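In co-treatment, where 1 potassium channel gene was called, 0 were called with library size as the only scaling or in 1 fit over both experiments, and 2 without the low-count filter, by DESeq2, by edgeR's exact test, without small RNA genes or with the replicate block. Over all genes these settings gave 80, 3, 535, 344, 333, 169 and 181 calls in that order, against 132 in the main fit. Leaving out 1 library gave 0 to 1 potassium channel genes. In pre-treatment with all 6 libraries, where 0 were called, 1 was called without the filter (KCNC4), 3 by DESeq2 (KCNC1, KCNC4 and KCND1) and 0 to 11 with 1 library left out, the 11 without control replicate 3. Over all genes the 6 libraries gave 6 calls, 319 without the filter and 705 by DESeq2. Without control replicate 3, where 11 were called, the count was 20 with library size only, 19 without the filter, 19 by DESeq2 and 23 with the replicate block. It was 5 when genes overlapping another coding gene were left out, a choice made after seeing the data. Over all genes that comparison gave 6871 calls, 6276 with library size only, 8287 without the filter, 7898 by DESeq2 and 10755 with the replicate block. With both controls kept, the count was 5 without treated 1, 6 without treated 2 and 17 without treated 3. All genes gave 3235, 4021 and 8577 calls in these 3 fits. Leaving out control 1 or control 2 leaves 1 control, which is then assumed to vary like the treated cultures. The median log2FC was -0.17 without control 1 and -0.23 without control 2, against 0.03 and 0.04 for all genes. For the difference between experiments, 12 libraries gave 0 and, without the filter, 2 (KCNJ11 and KCNMA1), or 0 to 5 with 1 library left out. The 11 libraries gave 5, or 12 without the filter, 9 by DESeq2, 8 with the replicate block and 3 without overlapping genes. With both pre-treatment controls kept, leaving out 1 library gave 2 to 10. The 2 came without co-treatment control 2 or treated 3 (636 and 730 calls over all genes). The 10 came without co-treatment control 1 (4499 calls over all genes). Over all genes, 12 libraries gave 7 calls and 272 without the filter. The 11 libraries gave 2058 calls over all genes, 3847 without the filter, 3386 by DESeq2 and 2684 with the replicate block. The replicate numbers share no stated pairing, and the block changed no other call count of potassium channel genes by over 1.5 times. Of 551 values of single genes under alternatives, 471 kept direction and side of the threshold, 65 lost the call, 15 gained it and 0 reversed. The cause of these changes was not tested. Depth limits the genes under 1 CPM, such as KCNS2 with 1 to 63 reads per library.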
